A study of Apis mellifera with 2 samples.

Results

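The mRNAs described here belong to juvenile hormone breakdown, juvenile hormone binding and a small set that the study calls juvenile hormone related. They are 5 of the 5924 mRNAs counted in queen larvae of the honey bee. They were chosen by name and record: Jhe (NM_001011563.1), JHBP-1 (NM_001011640.1), LOC726040 (XM_001121814.1), LOC413374 (XM_396819.3) and XM_001119986.1, the last of which has no gene name in the RefSeq table used. All 5 had tags in both libraries. The choice was made with earlier results of these data known, which the p values below do not take into account.

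The larvae were Apis mellifera ligustica of the strain ZND No.1, grafted into plastic queen cells and reared in queen-breeding colonies. In the miR-184 group each larva received 5 µl of a miR-184 solution of 100 ng/µl, and in the control group it received 5 µl of DEPC-treated water. The first dose was given between 26 and 32 hours after hatching and a second followed a day later, with 20 to 25 queen cells to a group. There was 1 tag library from each group, made from queen larvae, and how many larvae went into a library, and at what age they were collected, is not given in the sources used here. Since each condition had 1 library, no difference below has a replicate check, and every interval and p covers the counting of tags only.

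Juvenile hormone is a terpenoid made by the corpora allata, a pair of glands behind the insect brain. It holds a larva in its larval state from moult to moult, and in the honey bee a high titre in the young female larva is a well-known part of queen development. Its level in the blood is set by synthesis and by breakdown, chiefly by juvenile hormone esterase, which cleaves the methyl ester of the hormone, and by an epoxide hydrolase. In the blood the hormone travels on binding proteins, which were characterised best in moths. In RNA from whole animals or pools, fewer cells that make an mRNA and less of that mRNA per cell cannot be told apart.

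A tag is a short read from beside the last Nla III site of an mRNA, so that before PCR each mRNA molecule gives at most 1 tag whatever its length. PCR copies of a tag were not told apart, so the tags counted are reads and not molecules. The libraries held 1353258 tags (miR-184) and 1338190 tags (control). Levels are given as TPM, tags scaled to a library of 1000000. At this depth 1 tag was worth 0.739 TPM in the miR-184 library and 0.747 TPM in the control library. Ratios are miR-184 over control, and the thresholds of a call were a ratio over 2 in either direction together with p under 0.01 in the exact count test of Audic and Claverie (two-sided). Such a test sets 1 library against the other and cannot speak for the feeding conditions. By this rule 1 of the 5 members was lower (Jhe) and 0 were higher in the miR-184 library. Over all 5924 mRNAs the rule called 6.70% lower and 2.31% higher, so that a count of 1 among 5 says nothing particular about the group.

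Jhe encodes juvenile hormone esterase, the enzyme of hormone breakdown. It was counted with 63 tags in the miR-184 library and 171 tags in the control library. This equals 46.6 TPM (95% exact Poisson interval 35.8 to 59.6) in the miR-184 library and 127.8 TPM (109.3 to 148.4) in the control library, and the intervals do not overlap. The level of Jhe in the miR-184 library was thus 36.4% of that in the control library. The log2 ratio was -1.46, with a 95% Clopper-Pearson interval from -1.90 to -1.03, or 2.74-fold lower (2.04 to 3.73). The Audic and Claverie exact count test gave p = 3.8e-13, and p = 1.0e-11 after Benjamini-Hochberg adjustment over all 5924 mRNAs. Ranked by tags, Jhe stood at place 1734 in the miR-184 library and at place 880 in the control library. Of the 1242 mRNAs with a mean of 50 to 200 tags, 3.62% had a ratio as low as that of Jhe or lower, and the 5th and the 95th percentile of their log2 ratios were -1.28 and 0.86. Each library was then taken to vary beyond counting, with a coefficient of variation of 0.2. Jhe kept its call (negative binomial exact test, p = 0.0021), and 3.56% of all mRNAs were called lower. With 0.4 the call ended (negative binomial exact test, p = 0.101), and 0.304% of all mRNAs were called lower.

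**Figure D1:**
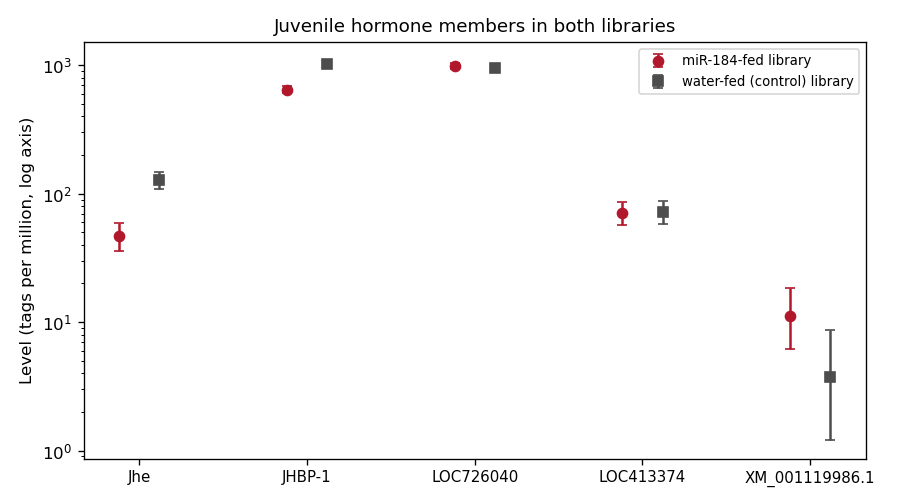
Level of each member in TPM (log axis) in the miR-184-fed library (red circles) and the water-fed control library (grey squares), with 95% exact Poisson intervals as bars. Jhe is lower in the miR-184 library (46.6 against 127.8 TPM), JHBP-1 is lower by less (644 against 1016 TPM), and the intervals of LOC726040 and LOC413374 overlap between the libraries.

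JHBP-1 is named as juvenile hormone binding protein 1, a class of blood proteins that carry the hormone and shield it from esterases. With 872 tags in the miR-184 library and 1360 in the control library, it was among the abundant mRNAs of both (places 221 and 158). Its level was 644 TPM (602 to 689) in the miR-184 library and 1016 TPM (963 to 1072) in the control library. The intervals of the 2 libraries do not overlap, and JHBP-1 was lower in the miR-184 library. The log2 ratio was -0.66 (-0.78 to -0.53), which is 1.58-fold lower (1.45 to 1.72). The difference was far larger than counting error (Audic and Claverie exact count test, p = 2.1e-26, adjusted p = 1.1e-24), but the ratio stayed under 2 and JHBP-1 was not called. Of the 2022 mRNAs that averaged 50 tags or more, 20.8% were lower at p under 0.01 whatever their ratio. Of the 206 mRNAs that averaged 1000 tags or more, 12.1% had a ratio as low as that of JHBP-1 or lower. Under the same assumed variation of 0.2, JHBP-1 had p = 0.115 (negative binomial exact test).

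LOC726040 and LOC413374 are called juvenile hormone related by the study, and neither has a further annotation in the sources used here. The study names them as predicted targets of several jelly miRNAs, and miR-184 is not among those it lists for them. LOC726040 was one of the abundant members, with 1336 tags in the miR-184 library and 1271 in the control library. Its level of 987 TPM (935 to 1042) in the miR-184 library overlapped that of 950 TPM (898 to 1003) in the control library. The log2 ratio was 0.06 (-0.06 to 0.17), and the tags place any difference between 0.962-fold and 1.12-fold (Audic and Claverie exact count test, p = 0.333). LOC413374 had 95 tags, or 70.2 TPM (56.8 to 85.8), in the miR-184 library and 96 tags, or 71.7 TPM (58.1 to 87.6), in the control library. Its log2 ratio was -0.03 (-0.46 to 0.39), and with fewer tags the interval was wider, from 0.729-fold to 1.31-fold (p = 0.881 in the same exact test). For both mRNAs the counts of the libraries lie within counting error, and the narrow interval of LOC726040 leaves room for a smaller difference than that of LOC413374.

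XM_001119986.1, the third juvenile hormone related mRNA, was the rarest of the group. It had 15 tags, or 11.1 TPM (6.20 to 18.3), in the miR-184 library and 5 tags, or 3.74 TPM (1.21 to 8.72), in the control library, and these intervals overlap. The log2 ratio of 1.57 had an interval from 0.04 to 3.38, which corresponds to 2.97-fold higher with bounds of 1.02 and 10.4. It did not pass the threshold of 0.01 (Audic and Claverie exact count test, p = 0.0439, adjusted p = 0.158). Of the 2225 mRNAs with a mean of 2 to 20 tags, 9.30% had a ratio at least as high. At 20 tags over both libraries the depth cannot separate a near-absent difference from a large one.

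**Figure D2:**
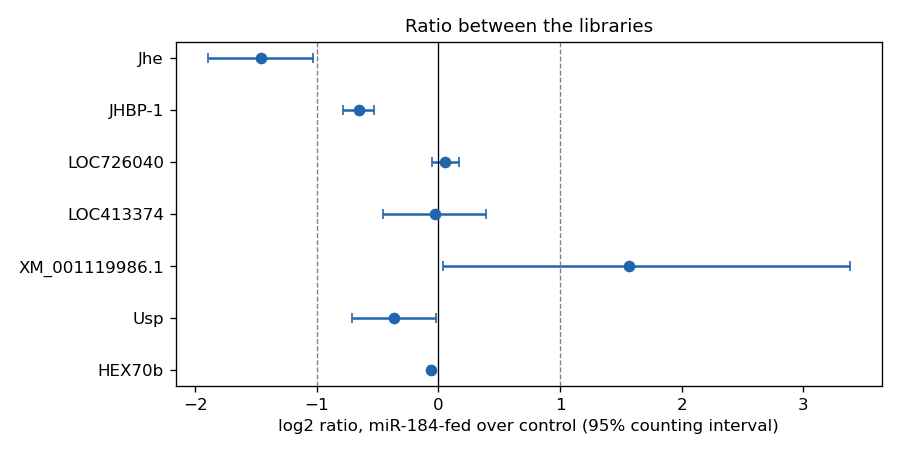
Log2 ratio, miR-184-fed over control, of the 5 members and of Usp and HEX70b, with 95% Clopper-Pearson counting intervals as bars. Dashed lines mark a ratio of 2 in either direction. Jhe alone lies below the lower dashed line with its whole interval (-1.90 to -1.03), and XM_001119986.1 has the widest interval (0.04 to 3.38).

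The members therefore did not move as one. In log2 ratio they spanned -1.46 (Jhe) to 1.57 (XM_001119986.1), with 3 below 0 and 2 above it. Their median log2 ratio was -0.03, beside -0.02 over all 5924 mRNAs. The counting intervals excluded a log2 ratio of 0 for 3 of the 5, namely Jhe, JHBP-1 and XM_001119986.1. Over all 5924 mRNAs the interval excluded 0 for 27.4%, and with 5 members no more is read from their count. The tags of all members added up to 1759 TPM in the miR-184 library and 2169 TPM in the control library, and JHBP-1 and LOC726040 made up most of both sums.

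**Figure D3:**
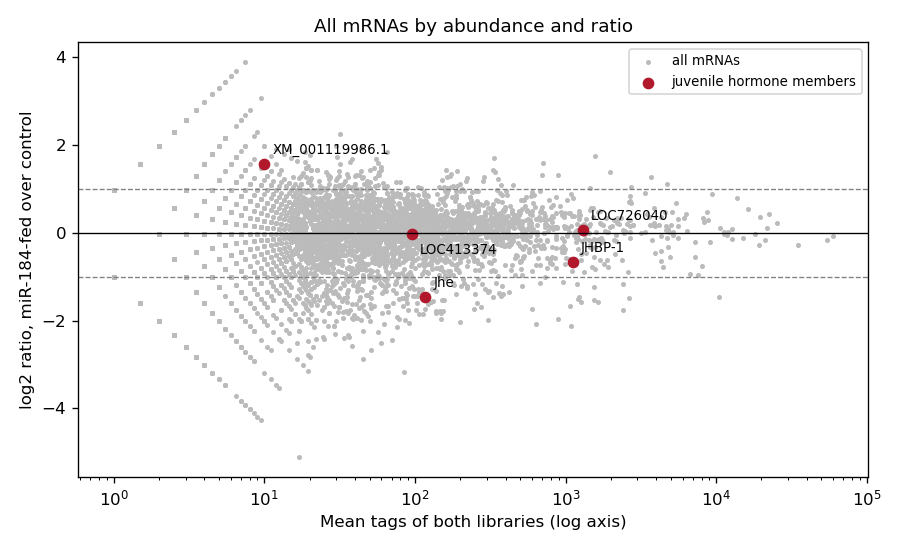
Log2 ratio, miR-184-fed over control, of all 5924 mRNAs (grey) against their mean tags in both libraries (log axis), with the 5 members in red and dashed lines at a ratio of 2. Jhe lies low among the mRNAs with a mean of 50 to 200 tags, of which 3.62% lie as low or lower. LOC413374 and LOC726040 lie near 0.

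Comparing members within a library does not depend on how the libraries are scaled. For every 100 tags of JHBP-1 there were 7.22 tags of Jhe in the miR-184 library (95% Clopper-Pearson interval 5.50 to 9.34) and 12.6 in the control library (10.7 to 14.8). The intervals do not overlap, so that within these libraries Jhe was lower also relative to JHBP-1. Set against LOC726040, there were 4.72 Jhe tags per 100 (3.60 to 6.07) in the miR-184 library and 13.5 (11.4 to 15.8) in the control library. All these ratios reuse the Jhe tags counted above and are no separate measurement of Jhe.

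The order of the levels differed between the libraries as well. From high to low it was LOC726040, JHBP-1, LOC413374, Jhe and XM_001119986.1 in the miR-184 library. In the control library it was JHBP-1, LOC726040, Jhe, LOC413374 and XM_001119986.1. In the miR-184 library there were 153.2 tags of LOC726040 per 100 of JHBP-1 (140.6 to 167.0), and LOC726040 was the higher of the pair. In the control library the number was 93.5 (86.5 to 101.0), and these neighbours in the order did not differ beyond counting error. Jhe and LOC413374 stood in opposite order, with 66.3 Jhe tags per 100 of LOC413374 (47.4 to 92.1) in the miR-184 library against 178.1 (137.9 to 231.2) in the control library. Both intervals leave out 100.

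**Figure D4:**
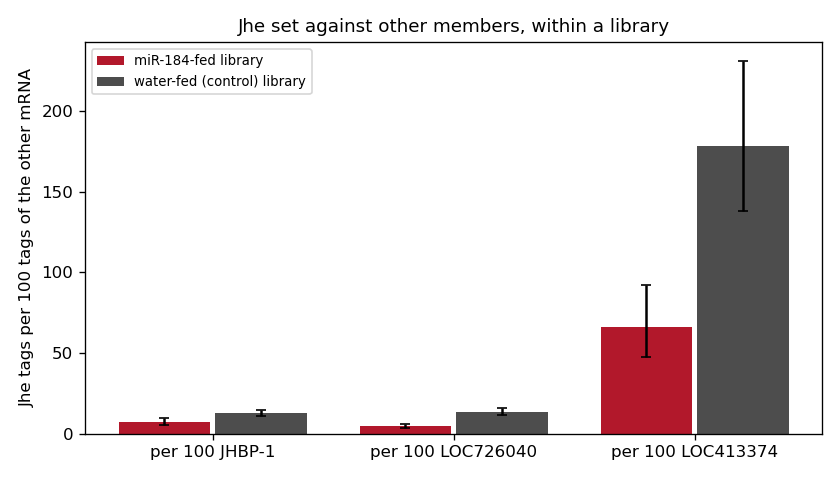
Tags of Jhe per 100 tags of JHBP-1, LOC726040 and LOC413374 within the miR-184-fed library (red) and the control library (grey), with 95% Clopper-Pearson counting intervals as bars. In each of the 3 pairs the bar of the miR-184 library is lower, for JHBP-1 with 7.22 against 12.6.

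Other genes of hormone synthesis, transport and response came from a list of 25 items. The RefSeq table names 10 genes of it by symbol or synonym, and 4 of these 10 were analysed here: Jhe and JHBP-1, with the hexamerin HEX70b and the nuclear receptor Usp. Of the 4, 1 was called lower (Jhe) and 0 higher, against the same 6.70% and 2.31% of all mRNAs. No counted record was matched by name to the genes of the last steps of synthesis or to the response gene Kr-h1. The same holds for the hexamerins Hex70a, Hex70c and Hex110. Many records have no name here, so this does not show that these mRNAs were absent. Usp is the partner of the ecdysone receptor and was studied in the fruit fly as a candidate for binding juvenile hormone. It had 125 tags (92.4 TPM) in the miR-184 library and 159 tags (118.8 TPM) in the control library, with a log2 ratio of -0.36 (-0.71 to -0.02). It did not pass the threshold (Audic and Claverie exact count test, p = 0.0348, adjusted p = 0.130). HEX70b is a storage protein of the larval blood. It was the most abundant mRNA of both libraries, at 58273 tags after miR-184 and 60187 after water, a log2 ratio of -0.06 (-0.08 to -0.05), and was not called.

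Of 18 markers set out for larval fat body, jelly glands, yolk and muscle, 7 were matched to a counted record and analysed. The yolk marker Vg was not among these 7. For larval fat body, HEX70b alone of the hexamerins set out was matched. It was high and nearly equal in both libraries, as given above. The 3 analysed genes of the major royal jelly proteins, set out as markers of jelly glands, summed to 12 tags in the miR-184 library and 13 in the control library. Mrjp8 had 10 tags in the miR-184 library and 6 in the control library, Mrjp1 2 and 5, and Mrjp2 0 and 2. These counts go in opposite directions and are too low to compare the libraries. The other genes of this family on the list were not matched to a counted record. Of the muscle genes, the log2 ratio was 0.47 (0.42 to 0.51) for Argk, 0.44 (0.26 to 0.63) for TpnI and -0.45 (-1.08 to 0.17) for TpnT, whose interval includes 0. Their part in the difference of Jhe was not tested.

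The 4 named members lie on 4 different linkage groups of the assembly Amel_HAv3.1. Of the 40 genes within 5 places of them, 2 were matched to a counted record. The first is LOC410449, which lies 2 places from LOC726040 and had 12 tags in the miR-184 library and 60 in the control library (log2 ratio -2.34; Audic and Claverie exact count test, p = 3.6e-09). The other is LOC726113, 3 places from LOC413374, with 31 tags in the miR-184 library and 24 in the control library (log2 ratio 0.35). Both fall outside the rule for named genes and were taken for their position. LOC726040, with a log2 ratio of 0.06, did not share the low ratio of its neighbour.

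By its pair of levels, the named mRNA nearest to Jhe was LOC413299, with 63 tags in the miR-184 library and 166 in the control library, at a distance of 0.04 log2 units over the 2 libraries. JHBP-1 had LOC412675 as its nearest, with 819 tags after miR-184 and 1199 after water (distance 0.20). The nearest to LOC726040 was LOC413891, with 1319 tags after miR-184 and 1322 after water. The nearest to LOC413374 was LOC413179, with 96 tags after miR-184 and 97 after water. LOC411553 had the same counts as XM_001119986.1, 15 tags after miR-184 and 5 after water. With 2 libraries, such likeness describes a pair of values and no more.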

How the data were processed

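The authors made 1 library from each group with a Digital Gene Expression tag kit, mapped the reads against mRNAs and the genome of the honey bee and added up, gene by gene, those with a unique position. The aligner, build and filters are not given in the sources used here. The deposited values are whole numbers and were read as tag counts. The labels call them TPM, but the columns exceed 1000000 and differ in total. The study describes levels as sums of reads, but no source states outright that the deposited columns are such sums. Every interval and p rests on this reading. No value of 1 occurs and the smallest above 0 is 2. Both columns were used.

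Each count was divided by its column total, and ratios took a listed 0 as 1 tag. The thresholds and the kind of test follow the study, whose further filters are not known, so the shares of mRNAs called are those computed here. edgeR's quasi-likelihood test needs replicates and could not be fitted. The main test was checked on simulated libraries that held counting variation only. That check therefore says nothing about variation between real libraries. Reads were amplified by PCR without molecular identifiers, and thus the intervals hold counting error and nothing else. A floor of 3 tags equals 2.22 TPM (miR-184) and 2.24 TPM (control).

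Names were matched through RefSeq transcript accessions of Amel_HAv3.1 without version (2801 of 5924 records). That table holds no gene descriptions, so the pathway list was matched by symbol and synonym only. No coordinates are given, since the sources name no build for the counts, and no sequences were at hand. Uniquely mapped reads leave out tags shared with near-identical copies, and strand was not examined.

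Named genes were all members, list genes that were called or among the 3 with most tags in their role, and for each member the named mRNA nearest in both log2 levels. The members and lists were chosen with earlier results of these data known. Alternatives covered scaling, test, assumed variation between libraries, thresholds, a filter on low counts and the treatment of 0. TMM factors and negative binomial exact tests came from edgeR 4.0.16 in R 4.3.3, the other values from scipy 1.17.1 and pandas 2.3.3 in Python 3.11.15.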

Additional observations from a re-analysis of the deposited data

How the results depend on the processing

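No paired analysis was possible because there was a single library of each group, so that none could be omitted either. The number of called members was 1. Of 13 alternatives it was 2 at p under 0.05, which adds XM_001119986.1, 2 with a ratio over 1.5, which adds JHBP-1, and 0 with an assumed coefficient of variation of 0.4. In the pathway list the number of lower genes was 1, with 2 at a ratio over 1.5 and 0 at a coefficient of variation of 0.4, while the number of higher genes was 0 in all 13. The median log2 ratio of the members ran from -0.038 to -0.015 under the 6 alternatives run for it. Of these, the filter and the 3 tags in place of a 0 could not move it. The scalings and the pseudocount can shift it only by far less than the width of the counting interval of the middle member. Its small change is therefore no check on the members. Over all mRNAs the number of calls was 534, with 861 at a ratio over 1.5, 262 at a coefficient of variation of 0.2 and 22 at 0.4. The thresholds and the assumed variation move these numbers by construction. None of the 156 results of the 12 named mRNAs turned its direction, but few of the alternatives act on the ratio at all. Depth limits XM_001119986.1 most, with 20 tags in all.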
